A study of Mus musculus with 9 samples.

Results

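Expression of 9 genes of MHC class II antigen presentation and T cell costimulation was followed across 9 RNA libraries of mouse acute myeloid leukemia (AML) cells. They were picked by name, and all 9 were found among the 55536 genes of the expression table. H2-Aa, H2-Ab1 and H2-Eb1 encode chains of the classical class II molecules. H2-DMa and H2-DMb1 encode the chains of H2-DM, which exchanges peptides in the class II groove, and Cd74 encodes the invariant chain, which fills and escorts new class II molecules. Ciita is the class II transactivator, and Cd80 and Cd86 encode the B7 ligands that costimulate T cells.

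The leukemia was raised by infecting c-kit+ cells of WT or IRF7-/- mice with a retrovirus that carries MLL-AF9 and GFP, so all groups share this oncogene and GFP. The GFP+ cells were given without irradiation to C57BL/6J hosts aged 6 to 8 weeks, which keep their own marrow cells, and leukemia cells were sorted from the marrow on day 18. There were 3 groups of 3 libraries. The c-kit- and c-kit+ fractions of the WT leukemia, called WT c-kit- and WT c-kit+ here, have the genotype control-GFP overexpression in the labels. The c-kit+ fraction of the knockout leukemia, IRF7-/- c-kit+, is given as IRF7-/--GFP overexpression. The knockout replaced exons 2 and 3 of Irf7 with a PGK-beta-geo cassette on a C57BL/6J background. The sources do not say whether each library came from its own mouse, so p-values below measure the spread between these libraries, which may be technical. The design allows 3 comparisons. The c-kit+ groups set against each other bear on the loss of IRF7, and the WT fractions set against each other bear on c-kit. Since the WT and IRF7-/- leukemias were raised from cells of different mice, the loss of IRF7 and other differences between these leukemias cannot be told apart. The labelled IRF7-/- c-kit+ libraries can also be set against WT c-kit-, and each pair of comparisons shares a group.

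Irf7 went against the label. Its level, read over the whole gene and therefore not for exons 2 and 3 alone, was 12.8, 5.97 and 7.95 TPM in the libraries labelled IRF7-/- c-kit+, above the 5.31, 3.91 and 3.36 TPM of WT c-kit+. The paper states that it verified IRF7 in its WT and IRF7-/- leukemia models with qRT-PCR and with Western blots, which were not read here. These libraries are therefore named by their label, and each direction below that involves them rests on it. Kit, the gene of the sorting marker, was 0.52 to 3.03 TPM in WT c-kit- and 50.7 to 85.7 TPM in the 6 c-kit+ libraries. The 10 myeloid marker genes (such as Mpo, Elane and Itgam) averaged at least 1 TPM in every group, but their levels differed. In the labelled libraries 2, Cebpe and Ly6g, were called lower than in WT c-kit+ and 0 higher, beside 5.39% and 6.3% of all genes tested. Ly6g was 0.65 to 1.77 TPM there. From WT c-kit- to WT c-kit+ 3 were called higher and 0 lower, beside 4.83% and 9.61%. Mean Mpo was 431 and 4855 TPM in these fractions, Elane 881 and 6030 TPM, and Cebpe 41.2 and 323 TPM. In the labelled libraries against WT c-kit- 3 were called higher and 1 lower, beside 8.4% and 11.9%. The part of these differences in the results below was not tested. Markers of B cells, dendritic cells and other cell types are given after the pathway genes.

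Levels are in TPM, which scales reads by transcript length and library total and so allows levels of different genes to be set side by side. TPM keeps no read number, so depth is unknown here and counting error has no estimate. Differences were tested with limma on log2(TPM + 1), a scale on which changes of low genes appear smaller than they are. Genes that reached 1 TPM in 3 or more of the 6 libraries compared were tested, so a gene below 1 TPM in one group can enter a test only through the other, where it is high, and its call is then a description of levels. A gene was called when its log2 fold change was at least 1 in size and its adjusted p under 0.05 over all genes tested. In sorted bulk cells, fewer cells that express a gene and less RNA per cell cannot be told apart.

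Class II molecules display peptides from the endosomal pathway to CD4+ T cells and are best known from dendritic cells, B cells and macrophages. Their alpha and beta chains pair in the endoplasmic reticulum with the invariant chain, which proteases later trim to a short peptide that H2-DM releases. CIITA does not bind DNA itself. It is recruited to class II promoters by RFX, CREB and NF-Y factors seated on the X and Y boxes, and its own expression is commonly described as the switch of the whole set. Mice of the C57BL/6 background carry a defective E alpha gene, so that H2-Eb1 is transcribed without a partner chain.

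To show the promoter elements that the class II genes share, a 100-base stretch that ends 26 bases before the transcription start is given for 5 genes of the class II region on chromosome 17, from the RefSeq start sites on GRCm38.p6. H2-Aa, H2-Eb1 and H2-DMb1 are members, and H2-DMb2 (another DM beta chain) and H2-Ob (the beta chain of the DM inhibitor H2-DO) are neighbours in the same locus. The stretches lie at chr17:34287849-34287948 (H2-Aa, minus strand), chr17:34305742-34305841 (H2-Eb1, plus strand), chr17:34153066-34153165 (H2-DMb1, plus strand), chr17:34145124-34145223 (H2-DMb2, plus strand) and chr17:34238780-34238879 (H2-Ob, plus strand). They are written 5′ to 3′ along the gene's strand. In each stretch the capitals further right mark the Y box TGATTGG, which is the inverted CCAAT box of NF-Y, and capitals to its left mark the X box AACNNATGA or, in H2-Aa, the CRE TGACGTCA, the palindrome bound by CREB and its relatives.
H2-Aa: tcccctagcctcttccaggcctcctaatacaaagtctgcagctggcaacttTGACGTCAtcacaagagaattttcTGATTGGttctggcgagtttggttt
H2-Eb1: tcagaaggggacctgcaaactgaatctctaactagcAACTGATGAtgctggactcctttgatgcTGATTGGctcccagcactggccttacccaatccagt
H2-DMb1: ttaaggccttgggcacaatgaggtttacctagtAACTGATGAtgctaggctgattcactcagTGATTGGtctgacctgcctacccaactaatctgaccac
H2-DMb2: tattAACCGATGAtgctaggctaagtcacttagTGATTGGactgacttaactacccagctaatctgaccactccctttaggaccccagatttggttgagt
H2-Ob: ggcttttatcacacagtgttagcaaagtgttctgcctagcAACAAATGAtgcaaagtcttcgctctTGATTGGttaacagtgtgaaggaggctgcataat

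The upstream motif and the Y box began 24 bases apart in H2-Aa, 28 in H2-Eb1, 29 in H2-DMb1 and H2-DMb2, and 26 in H2-Ob. Both strands of the 250 bases before each start were searched, and the motifs were spelled after these promoters had been read. Of all 32851 RefSeq promoter windows of this length, 7.23% held the Y box, 2.49% the X box and 1.55% the CRE. Only 6 windows, 0.0183% of them, held an X box 25 to 35 bases before a Y box on the gene's strand. Of these, 4 belong to H2-Eb1, H2-DMb1, H2-DMb2 and H2-Ob, and the others to BC051142 and Gm34733. The letters and the spacing range both take in the boxes of these 4 genes, so finding them was fixed beforehand and the share is no test. H2-Aa, with a CRE at 24 bases, falls outside the pattern. H2-DMa and Cd80 also had windows, without these letters in them. Windows of 5 of the 9 members were searched, and H2-Ab1, Cd74, Ciita and Cd86 were not among them. The search of single genes left out chromosome 18, where Cd74 lies. A match is a description of the sequence, not a measured binding site.

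**Figure D1:**
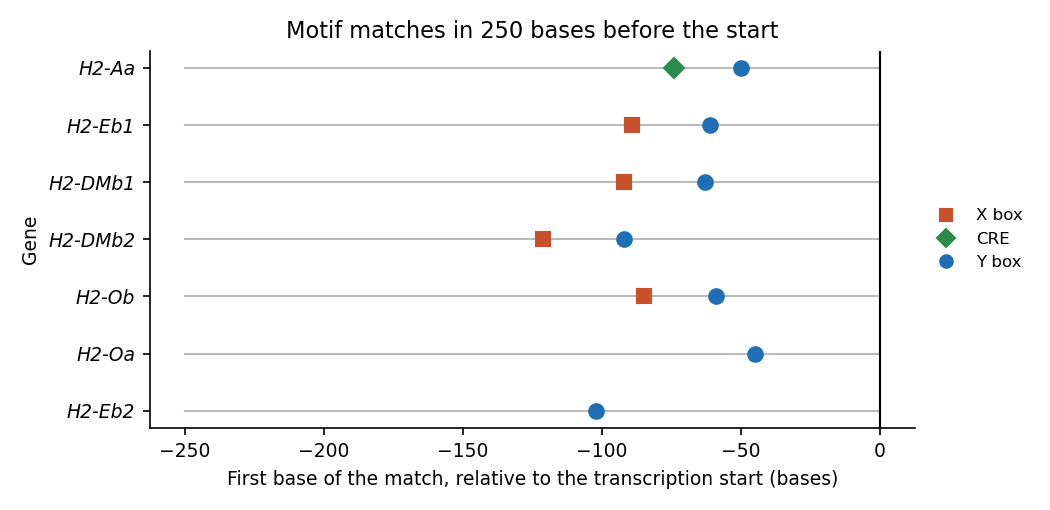
Position of each motif match relative to the transcription start in bases (x axis, 0 is the start) for 7 genes of the class II region (y axis). Squares mark the X box, the diamond the CRE and circles the Y box. In H2-Aa, H2-Eb1, H2-DMb1, H2-DMb2 and H2-Ob an upstream motif precedes the Y box by 24 to 29 bases, while H2-Oa and H2-Eb2 show the Y box alone.

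Between the c-kit+ groups, transcripts of H2-Aa, H2-Eb1, Cd74 and Ciita were near the bottom of the scale in the libraries labelled IRF7-/- c-kit+, and the mean TPM of H2-Aa, H2-Eb1 and Cd74 was 33.7-fold, 44.6-fold and 46.3-fold higher in WT c-kit+. H2-Ab1 fell by a smaller amount, and Cd80 fell as well. H2-DMa rose, and H2-DMb1 passed the adjusted p but not the fold threshold. Thus 6 of the 8 members tested were called lower, beside 5.39% of all 13238 genes tested, and 1 was called higher, beside 6.3%. Of these, H2-Eb1 and Ciita passed the filter on low values only through the WT c-kit+ libraries, and Cd86 did not pass it. H2-Eb1 reached 1 TPM in 2 labelled libraries and Ciita in 0, so the calls of both describe levels. All genes of this comparison had a median log2 fold change of 0.12 and the 8 members one of −2.33, so changes relative to the median gene are 0.12 lower than those quoted.

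H2-Aa (chr17:34282744-34287823, minus strand, GRCm38) encodes the alpha chain of the I-A molecule, the only classical class II pair that C57BL/6 mice assemble. Its level was 103, 93.5 and 190.3 TPM in WT c-kit-, 82.5, 72.0 and 69.2 TPM in WT c-kit+, and just 1.66, 2.42 and 2.55 TPM across the libraries labelled IRF7-/- c-kit+. All 3 labelled libraries lay far below all 6 WT libraries, and no groups overlapped. Its log2 fold change between the c-kit+ groups was −4.56 (SE 0.14, limma adjusted p = 8.77e-06).

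H2-Ab1 (chr17:34257689-34269419, plus strand) encodes the beta chain that pairs with the H2-Aa product. It measured 90.0, 85.35 and 183 TPM in WT c-kit-, 74.3, 68.85 and 64.4 TPM in WT c-kit+, and 32.6, 27.4 and 42.4 TPM across the labelled libraries. The groups were in the same order as for H2-Aa and did not overlap, but the labelled libraries kept a mean of 34.1 ± 7.66 TPM (SD, n = 3). The log2 fold change between the c-kit+ groups was −1.02 (SE 0.15, limma adjusted p = 0.00227), just past the fold threshold. It was −0.88 without labelled library 2, −0.97 without WT c-kit+ library 1 and −0.998 without labelled library 1, each of which ended the call.

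H2-Eb1 (chr17:34305867-34316674, plus strand) encodes the beta chain of the I-E molecule. Its 9 values were 64.3, 53.4 and 121.65 TPM in WT c-kit-, 58.55, 50.6 and 44.1 TPM in WT c-kit+, and 0.77, 1.03 and 1.64 TPM across the labelled libraries. The WT groups overlapped with each other, and the labelled libraries lay below both. H2-Eb1 had a log2 fold change of −4.61 between the c-kit+ groups (SE 0.18, limma adjusted p = 1.66e-05). It reached 1 TPM in 2 labelled libraries and so entered this test through WT c-kit+.

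**Figure D2:**
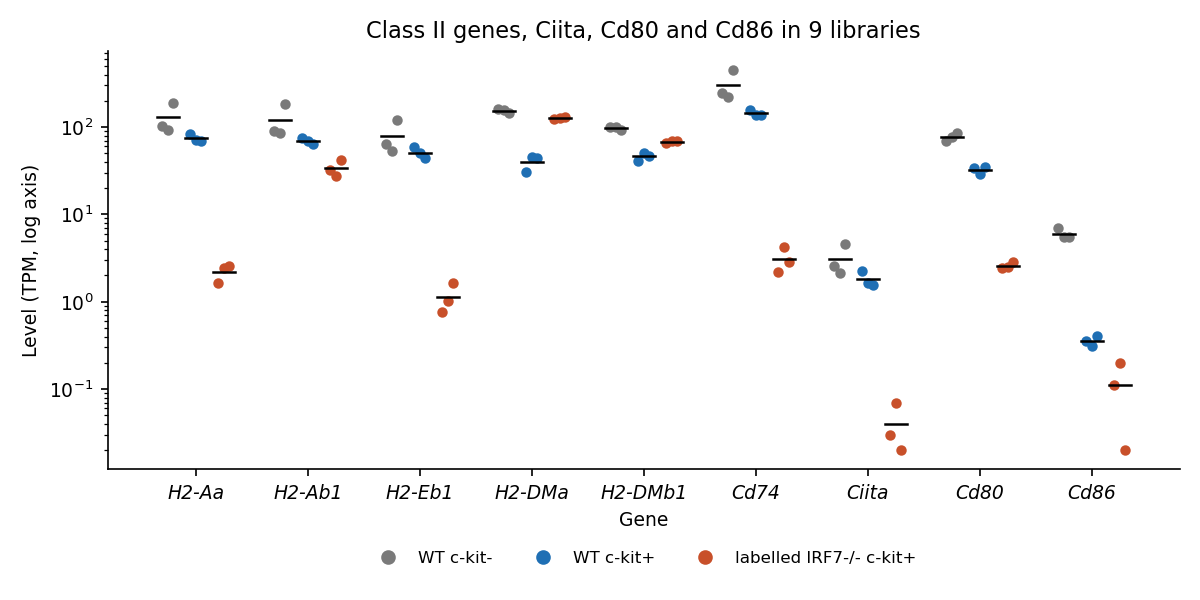
TPM (log axis) of the 9 genes in each of the 9 libraries. Points are libraries, coloured by group, and black bars are group means. The labelled IRF7-/- c-kit+ libraries sit at 0.02 to 4.24 TPM for H2-Aa, H2-Eb1, Cd74, Ciita, Cd80 and Cd86, at 27.4 to 42.4 TPM for H2-Ab1, and above the WT c-kit+ libraries for H2-DMa and H2-DMb1.

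Among the genes of peptide loading, Cd74 (chr18:60803848-60812652, plus strand) was the most abundant member in the WT groups. It reached 243, 222 and 453 TPM in WT c-kit-, 158, 136 and 137 TPM in WT c-kit+, and 2.22, 4.24 and 2.84 TPM across the labelled libraries. These groups did not overlap. The log2 fold change of −5.17 (SE 0.18, limma adjusted p = 1.08e-05) between the c-kit+ groups ranked 11 from the lowest of 13238 genes.

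H2-DMa (chr17:34119541-34139101, plus strand) did the opposite between the c-kit+ groups. It was 163, 156 and 146 TPM in WT c-kit-, only 30.4, 45.6 and 44.3 TPM in WT c-kit+, and 125, 128 and 129.8 TPM across the labelled libraries. The labelled libraries were close together and stood between the WT groups without overlap. The log2 fold change between the c-kit+ groups was 1.67 (SE 0.15, limma adjusted p = 0.000339). Of its exonic bases, 10.4% are shared with Brd2 on the other strand, and the library kit does not mark strand, so reads there cannot be told apart. Brd2 was 264 ± 45.7 TPM in WT c-kit+ and 238 ± 9.93 TPM in the labelled libraries (SD, n = 3).

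H2-DMb1 (chr17:34153072-34160230, plus strand), the partner of H2-DMa, followed the same order. It differed less than H2-DMa between WT c-kit+ and each other group, and more between WT c-kit- and the labelled libraries. Its level was 101, 99.5 and 91.8 TPM in WT c-kit-, 41.2, 50.5 and 46.9 TPM in WT c-kit+, and 65.2, 68.7 and 69.0 TPM across the labelled libraries. No groups overlapped. The step between the c-kit+ groups was 0.54 on the log2 scale (SE 0.08, limma adjusted p = 0.00237), under the fold threshold. H2-DMb2, its near-identical neighbour, was 7.99 to 8.71 TPM in WT c-kit+ and 4.28 to 5.45 TPM in the labelled libraries, a log2 fold change of −0.73 (SE 0.12, limma adjusted p = 0.00295) that also missed the fold threshold. How reads common to these copies were divided is not given in the sources used here, so the values of both are uncertain.

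Ciita (chr16:10480059-10528418, plus strand) was the least abundant member in WT c-kit-. It measured 2.60, 2.13 and 4.62 TPM there, 2.23, 1.66 and 1.57 TPM in WT c-kit+, and 0.03, 0.07 and 0.02 TPM across the labelled libraries. The WT groups overlapped, and the labelled libraries were all close to 0. The log2 fold change between the c-kit+ groups was −1.43 (SE 0.16, limma adjusted p = 0.000736), on a scale where values this low are compressed. The group means of 1.82 ± 0.358 and 0.040 ± 0.0265 TPM (SD, n = 3) differed 45.5-fold. Without labelled library 2 the labelled mean of Ciita was 0.025 TPM and the factor 72.8-fold, so that its size rests on single libraries near 0. Dexi shares 3.45% of the exonic bases of Ciita on the other strand and ran from 4.20 to 7.88 TPM over all libraries.

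Of the B7 ligands, Cd80 (chr16:38455561-38496335, plus strand) was the more abundant. It was 69.3, 78.05 and 85.7 TPM in WT c-kit-, 34.1, 29.0 and 34.5 TPM in WT c-kit+, and 2.42, 2.48 and 2.84 TPM across the labelled libraries. The 3 groups formed separate steps, and the log2 fold change between the c-kit+ groups was −3.23 (SE 0.11, limma adjusted p = 1.08e-05). Cd86 (chr16:36603869-36666081, minus strand) was 6.97, 5.54 and 5.47 TPM in WT c-kit-, 0.36, 0.31 and 0.41 TPM in WT c-kit+, and 0.11, 0.20 and 0.02 TPM across the labelled libraries. It was above 1 TPM only in WT c-kit-, and the c-kit+ groups, which did not overlap, gave p = 0.1 in an exact two-sided permutation test, the smallest that 3 against 3 libraries allow.

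Along the c-kit fraction of the WT leukemia, H2-DMa, H2-DMb1, Cd80 and Cd86 were lower in WT c-kit+ than in WT c-kit-, and Cd74 passed the thresholds narrowly. The 3 classical chains and Ciita did not pass. In all, 5 of the 9 members tested were called lower, beside 9.61% of all 13261 genes tested, and 0 were called higher by limma, beside 4.83%. At an unadjusted p under 0.05 and any fold change, 7 were lower, beside 32.3% of all genes, and 0 higher, beside 17.7%. Cd86 passed the filter on low values only through the WT c-kit- libraries. The median log2 fold change of the 9 members was −1.01 and that of all genes −0.08.

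Cd86 had the largest of these changes, a log2 fold change of −2.36 (SE 0.14, limma adjusted p = 5.3e-05), and its mean TPM was 16.6-fold higher in WT c-kit-. H2-DMa followed with −1.94 (SE 0.15, limma adjusted p = 0.000141), then Cd80 with −1.23 (SE 0.10, limma adjusted p = 0.000185). The H2-DMb1 change of −1.06 (SE 0.09, limma adjusted p = 0.000161) came to −0.99 without WT c-kit+ library 1 and −0.89 after quantile normalization, which ended the call. Cd74 changed by −1.01 (SE 0.26, limma adjusted p = 0.0202). Without WT c-kit- library 3 its log2 fold change was −0.69, and leaving out WT c-kit+ library 2 or 3 gave limma adjusted p = 0.0583 and 0.0595. The classical chains had intervals that reached from about 0 to past the fold threshold. For H2-Aa the log2 fold change was −0.71 (95% interval −1.33 to −0.09, limma adjusted p = 0.067), for H2-Ab1 −0.69 (−1.36 to −0.02, limma adjusted p = 0.0928), for H2-Eb1 −0.55 (−1.25 to 0.15, limma adjusted p = 0.182) and for Ciita −0.51 (−1.09 to 0.08, limma adjusted p = 0.143).

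WT c-kit- library 3 stood apart in the genes with wide intervals. In it, H2-Aa, H2-Ab1, H2-Eb1, Cd74 and Ciita were 1.94 to 2.09 times the mean of libraries 1 and 2, while H2-DMa, H2-DMb1, Cd80 and Cd86 were 0.875 to 1.16 times. Among 12199 genes of 1 TPM or more in all 3 libraries of the group, 2.46% reached a ratio of at least 1.94, and the median ratio was 0.962. The ratio was also high for Ly6g (4.75), Cebpe (2.65) and Kit (3.54), but it was 0.799 for Irf8. The summed myeloid markers, which include Ly6g and Cebpe, had a ratio of 0.942. Of the other myeloid markers, Itgam and Csf3r were highest in library 3. Mpo (ratio 0.859), Elane, Ly6c2 and, narrowly, Meis1 were lowest there, and Cebpa and Hoxa9 lay between. The summed dendritic cell markers had a ratio of 0.708, which does not describe the list as a whole. Flt3, the largest part of that sum, was 36.6 TPM against a mean of 71.6 TPM (0.512). Siglech was also lowest in library 3, while Zbtb46, Clec9a, Batf3, Ccr7 and Klrd1 were highest there. Some of these were highest by little: Klrd1 with 2.96 against 2.95 TPM in library 1, and, against library 2, Ccr7 with 2.08 against 2.05 TPM and Zbtb46 with 1.43 against 1.31 TPM. Cd209a, Itgax and Xcr1 lay between the other libraries. Whether these differences bear on the class II levels was not tested. Without this library the log2 fold change from WT c-kit- to WT c-kit+ was −0.39 for H2-Aa, −0.34 for H2-Ab1, −0.20 for H2-Eb1 and −0.26 for Ciita, and −1.99 for H2-DMa.

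Against WT c-kit-, the libraries labelled IRF7-/- c-kit+ were lower in 7 of the 9 members tested, beside 11.9% of all 13510 genes tested, and 0 were called higher by limma, beside 8.4%. At an unadjusted p under 0.05 and any fold change, 9 were lower, beside 30.8% of all genes, and 0 higher, beside 33.1%. The members' median log2 fold change was −2.65, and that of all genes 0.03. H2-Eb1, Ciita and Cd86 passed the filter on low values only through the WT c-kit- libraries, so their calls describe levels. Cd74 changed most, with a log2 fold change of −6.18 (SE 0.30, limma adjusted p = 1.41e-05), which ranked 6 from the lowest. H2-Aa changed by −5.28 (SE 0.28, limma adjusted p = 1.78e-05), H2-Eb1 by −5.16, Cd80 by −4.45 and Cd86 by −2.65. H2-Ab1 changed by only −1.71 (SE 0.31, limma adjusted p = 0.00312). H2-DMa, with −0.27 (SE 0.06, limma adjusted p = 0.00555), and H2-DMb1, with −0.52 (SE 0.06, limma adjusted p = 0.000412), stayed under the fold threshold.

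**Figure D3:**
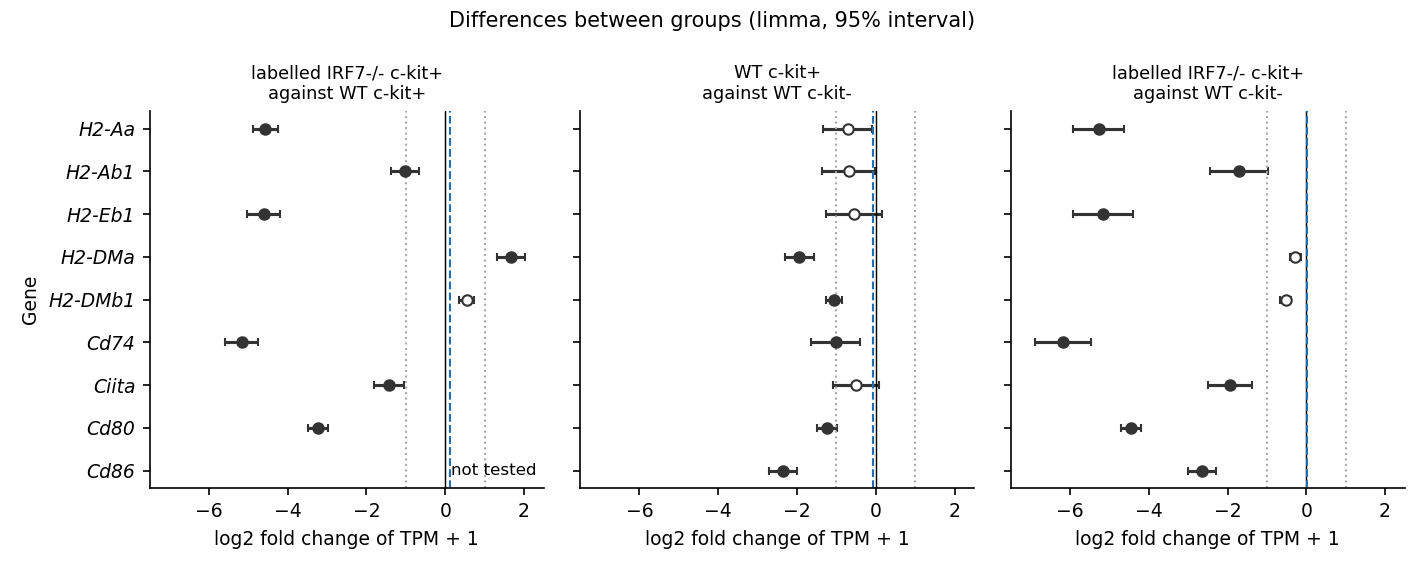
log2 fold change of TPM + 1 (x axis) with its 95% interval for the 9 genes in the 3 comparisons, from limma. Filled points passed both thresholds, open points did not. Dotted lines mark a log2 fold change of 1 in size, and the dashed line marks the median of all genes. H2-DMa lies at 1.67 in the first panel, −1.94 in the second and −0.27 in the third, while H2-Aa lies at −4.56, −0.71 and −5.28.

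Set against H2-Aa of the same library, which removes any common scaling of a library, H2-Ab1, H2-Eb1 and Ciita lay in narrow bands in the WT leukemia, and H2-Ab1 left its band by the widest margin of these in the labelled libraries. H2-Ab1 was 0.875 to 0.960 times H2-Aa in the 6 WT libraries, and 19.6, 11.3 and 16.6 times in the labelled ones. Thus the transcripts for the chains of the I-A pair, near equal in all WT libraries, were unequal in all 3 labelled libraries. H2-Eb1 was 0.571 to 0.710 times H2-Aa in the WT libraries and 0.464, 0.426 and 0.643 times in the labelled ones, with an exact two-sided permutation p = 0.2 between the c-kit+ groups. H2-DMa was 0.368 to 0.640 times H2-Aa in WT c-kit+ and 50.9 to 75.3 times in the labelled libraries. The divisor H2-Aa was only 1.66 to 2.55 TPM in the labelled libraries, so the ratios of all genes there rest on low levels. The mean TPM of H2-DMa itself was 3.18-fold higher there than in WT c-kit+.

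The Cd74 to H2-Aa ratio was nearly constant within a WT group and lower in the c-kit+ fraction. It was 2.36, 2.37 and 2.38 in WT c-kit-, 1.91, 1.89 and 1.98 in WT c-kit+, and 1.34, 1.75 and 1.11 in the labelled libraries. WT c-kit- library 3, with its higher class II level, had the same ratio as the others of its group. No groups overlapped in this ratio, and each neighbouring pair gave an exact permutation p = 0.1, the smallest possible. In the labelled libraries it was taken over low levels, with Cd74 at 2.22 to 4.24 TPM and H2-Aa at 1.66 to 2.55 TPM. Ciita was 0.0227 to 0.0270 times H2-Aa in the 6 WT libraries. In the labelled libraries this ratio ran from 0.00784 to 0.0289, over Ciita levels close to 0.

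**Figure D4:**
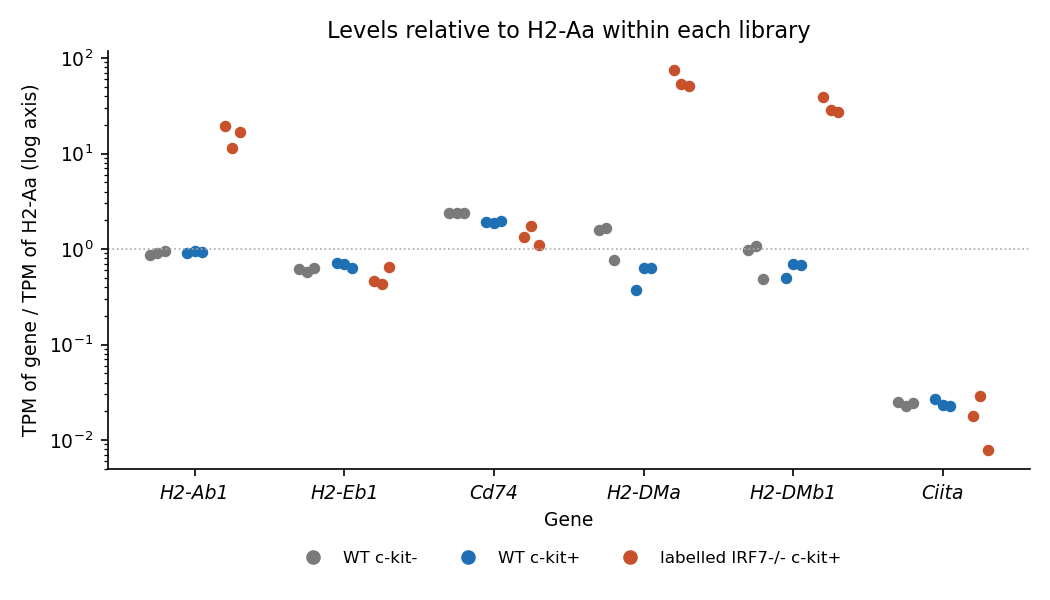
TPM of 6 genes divided by the TPM of H2-Aa in the same library (log axis), with 1 point per library, coloured by group. The WT points of H2-Ab1, H2-Eb1 and Ciita form tight bands, and the labelled IRF7-/- c-kit+ points lie far above the WT points for H2-Ab1 (11.3 to 19.6), H2-DMa (50.9 to 75.3) and H2-DMb1 (27.1 to 39.3). For H2-Eb1, 2 of the 3 labelled points lie below the WT band, and for Ciita 2 lie below it and 1 just above it.

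The factors that sit on class II promoters and the signals that induce Ciita were read next, from a list of 23 genes. Between the c-kit+ groups 0 of the 21 tested were called higher by limma and 1 lower, with a median log2 fold change of 0.01, and at an unadjusted p under 0.05 and any fold change 6 were higher and 2 lower, beside 36.3% and 18.9% of all genes. Among the promoter-bound factors, Rfx5, an RFX subunit, was 18.2 to 20.35 TPM in WT c-kit+ and 21.45 to 27.1 TPM in the labelled libraries (log2 fold change 0.26, limma adjusted p = 0.077), and Rfxank, another, was 12.3 to 14.9 and 11.8 to 13.0 TPM. Nfya, an NF-Y subunit, was 82.9 to 92.1 and 87.6 to 91.4 TPM. Counts of this list and of those below stand beside shares of all genes tested. Called lower and higher were 5.39% and 6.3% between the c-kit+ groups and 9.61% and 4.83% from WT c-kit- to WT c-kit+. In the labelled libraries against WT c-kit- they were 11.9% and 8.4%. At an unadjusted p under 0.05 the shares were 18.9% and 36.3%, 32.3% and 17.7%, and 30.8% and 33.1%, in the same order.

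The gene called lower was Irf8, a transcription factor of monocytes and dendritic cells. It fell from 93.3, 132 and 135 TPM in WT c-kit+ to 28.6, 65.5 and 31.1 TPM in the labelled libraries, a log2 fold change of −1.59 (SE 0.32, limma adjusted p = 0.007). Ifngr1, the ligand-binding chain of the interferon gamma receptor that acts upstream of Ciita, was 222 to 237 TPM in WT c-kit+ and 464, 397 and 468 TPM across the labelled libraries. Its log2 fold change of 0.94 (SE 0.08, limma adjusted p = 0.000246) stayed just under the fold threshold.

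Between the WT fractions 3 of 23 regulators tested were called lower and 0 higher by limma, beside 9.61% and 4.83% of all genes. At an unadjusted p under 0.05, 8 were lower and 3 higher, beside 32.3% and 17.7%. Irf8 was 593, 494 and 435 TPM in WT c-kit- (log2 fold change to WT c-kit+ −2.08, SE 0.17, limma adjusted p = 0.00017). Irf4, a relative of Irf8, was 8.76 to 11.6 TPM in WT c-kit- against 0.77 to 1.02 TPM in WT c-kit+ (−2.52, SE 0.15, limma adjusted p = 4.7e-05) and 0.01 to 0.14 TPM in the labelled libraries. It reached 1 TPM in only 1 WT c-kit+ library and so entered the test through WT c-kit-. Ifngr2, the second receptor chain, was 37.7 to 48.55 against 10.9 to 12.45 TPM (−1.85, SE 0.11, limma adjusted p = 5.4e-05). In the labelled libraries against WT c-kit-, 4 of 23 tested (Irf8, Irf4, Ifngr2 and Socs3) were called lower and 0 higher by limma, beside 11.9% and 8.4% of all genes. At an unadjusted p under 0.05, 9 were lower and 7 higher, beside 30.8% and 33.1%. Of the 4 called, Irf4 and Socs3 were below 1 TPM in all labelled libraries and entered through WT c-kit-.

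The accessory genes of the pathway, a list of 13 of which 12 are in the table, were read in the same way. From WT c-kit- to WT c-kit+, 7 of 10 tested were called lower and 0 higher by limma, with a median log2 fold change of −1.33 and with 8 and 0 at an unadjusted p under 0.05. Ctss, the protease that trims the invariant chain, was 621, 553 and 593 TPM in WT c-kit- and 30.8, 45.2 and 48.2 TPM in WT c-kit+ (log2 fold change −3.82, SE 0.16, limma adjusted p = 1.99e-05). Ifi30, the lysosomal thiol reductase GILT, changed by −3.44 (SE 0.09, limma adjusted p = 7.95e-06), and Lgmn, Ctsl, March1, H2-DMb2 and H2-Ob by −2.76, −1.52, −3.26, −1.01 and −1.13.

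Between the c-kit+ groups 2 of 9 accessory genes tested were called lower and 0 higher by limma, with 5 and 1 at an unadjusted p under 0.05. March1, a ubiquitin ligase that takes class II and CD86 from the cell surface, went from 5.66, 4.75 and 5.97 TPM in WT c-kit+ to 0.63, 0.60 and 0.15 TPM in the labelled libraries (log2 fold change −2.16, SE 0.18, limma adjusted p = 0.000278). March1 thus passed the filter only through WT c-kit+. Ctss was 15.8, 30.35 and 10.4 TPM in the labelled libraries, a log2 fold change of −1.20 (SE 0.36, limma adjusted p = 0.0332). H2-Oa and H2-Ob, the chains of H2-DO, were at 5.68, 11.2 and 6.47 TPM and at 4.35, 5.77 and 5.81 TPM in the labelled libraries, and each overlapped with WT c-kit+. H2-Ob carries the spaced X and Y boxes printed above, as do H2-Eb1, H2-DMb1 and H2-DMb2. The log2 fold changes of these 4 between the c-kit+ groups were 0.18, −4.61, 0.54 and −0.73. In the labelled libraries against WT c-kit-, 6 of 9 accessory genes tested were called lower and 0 higher by limma, with 7 and 1 at an unadjusted p under 0.05, and March1 was again the 1 that entered through the higher group alone.

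**Figure D5:**
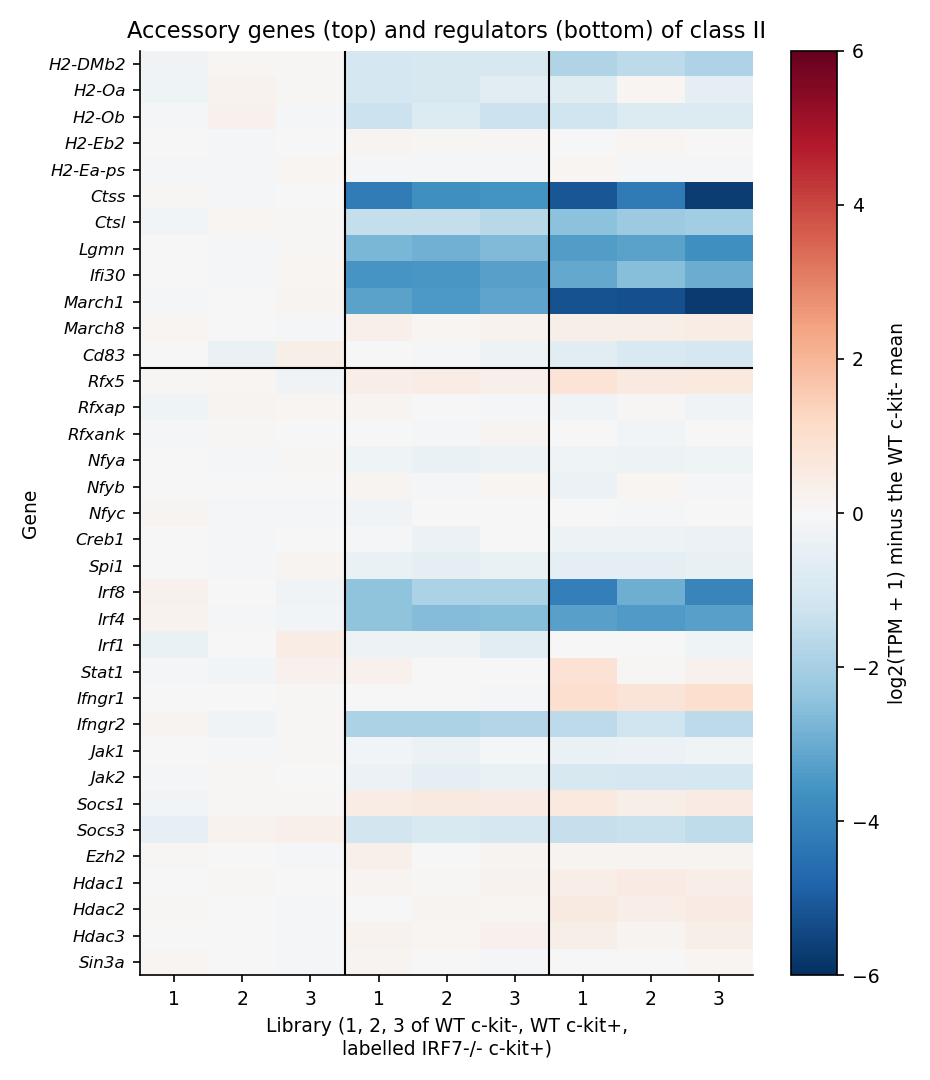
log2(TPM + 1) minus the mean of the WT c-kit- libraries (colour) for 12 accessory genes (top) and 23 regulators (bottom) in the 9 libraries (columns). Ctss, Lgmn, Ifi30, March1, Irf8, Irf4 and Ifngr2 are blue in all 6 c-kit+ libraries, and the RFX and NF-Y subunits stay near white in every column.

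Other ligands of T cell costimulation and inhibition, a list of 14 of which 13 are in the table, were set beside Cd80 and Cd86. Between the c-kit+ groups 1 of 6 tested, the adhesion ligand Icam1, was called higher, from 4.60, 5.54 and 5.20 TPM in WT c-kit+ to 10.5, 15.4 and 11.55 TPM in the labelled libraries (log2 fold change 1.13, SE 0.15, limma adjusted p = 0.00163). In the same list 0 were called lower by limma, with 4 higher and 1 lower at an unadjusted p under 0.05. Vsir (VISTA) had a log2 fold change of −0.94 and Cd274 (PD-L1) of 0.73, both under the fold threshold. From WT c-kit- to WT c-kit+, 6 of 9 tested were called lower and 0 higher by limma, with 7 and 1 at an unadjusted p under 0.05. Among them Cd40, the receptor through which T helper cells raise Cd80 and Cd86, was 14.2, 8.43 and 11.7 TPM in WT c-kit- and 0.55, 1.46 and 0.56 TPM in WT c-kit+. It was 1 of 3 called genes, with Tnfsf9 and Havcr2, that reached 1 TPM in fewer than 3 WT c-kit+ libraries. In the labelled libraries against WT c-kit-, 6 of 9 were called lower and 1 higher, the latter being Lgals9 (galectin-9), with a log2 fold change of 1.58 (SE 0.10, limma adjusted p = 3.78e-05). There Cd40, Tnfsf9 and Havcr2 were below 1 TPM in all labelled libraries.

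Markers of professional antigen-presenting cells were read in the same libraries, since the sort was by GFP and c-kit. The 10 dendritic cell markers summed to 87.0 to 126 TPM in WT c-kit-, 13.0 to 26.0 TPM in WT c-kit+ and 10.45 to 59.2 TPM in the labelled libraries, where Flt3 alone gave 56.9 TPM in library 2. Cd209a was the 1 of 3 tested that was called lower between the c-kit+ groups, and 0 were called higher by limma, with the same counts at an unadjusted p under 0.05. It was 1.42, 1.56 and 4.61 TPM in WT c-kit+ and 0.00, 0.19 and 0.10 TPM across the labelled libraries, and passed the filter only through WT c-kit+. Between the WT fractions 6 of 9 were called lower, of which 3 reached 1 TPM in fewer than 3 WT c-kit+ libraries. In the labelled libraries against WT c-kit- 8 of 9 were, of which 7 reached 1 TPM in no labelled library. Zbtb46, a defining gene of conventional dendritic cells, was 1.17 to 1.43 TPM in WT c-kit-, 0.40 to 0.72 TPM in WT c-kit+ and 0.01 to 0.04 TPM in the labelled libraries, and Xcr1 stayed at or below 0.20 TPM. The part of such cells in the class II levels was not tested.

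The 9 B cell markers summed to 412 to 505 TPM in WT c-kit-, 145 to 176 TPM in WT c-kit+ and 88.0 to 164 TPM in the labelled libraries. Nearly all of this came from Ighm, at 366 to 460, 116 to 142 and 55.0 to 125 TPM in the 3 groups, and Cd79b, at 25.8 to 37.1 TPM over all libraries, while Ms4a1, Pax5 and Ebf1 stayed at or below 0.32 TPM. Between the c-kit+ groups 1 of 3 tested was called lower and 0 higher by limma, with 2 and 0 at an unadjusted p under 0.05. This was Cd22, at 2.06, 2.98 and 5.11 TPM in WT c-kit+ and 0.12 to 0.16 TPM in the labelled libraries, which passed the filter only through WT c-kit+. It was 7.77 to 12.9 TPM in WT c-kit-. The part of B cells in the class II levels was not tested. The 10 macrophage markers summed to 497 to 545, 82.7 to 123 and 95.3 to 110 TPM in the 3 groups, led by Csf1r and Adgre1. Between the c-kit+ groups 0 of the 6 macrophage markers tested were called in either direction by limma, with 4 lower and 1 higher at an unadjusted p under 0.05. Between the WT fractions 3 of 6 were called higher and 3 lower, the former being C1qa, C1qb and C1qc, which reached 1 TPM in at most 1 WT c-kit- library. The 8 T cell markers summed to 1.66 to 5.78 TPM over all libraries, with Cd3e at or below 0.22 TPM. Lck was the 1 of 2 tested that was called higher between the c-kit+ groups, at 0.68, 0.98 and 0.47 TPM in WT c-kit+ and 3.68, 1.17 and 2.95 TPM across the labelled libraries, through which alone it passed the filter (log2 fold change 1.01, SE 0.30, limma adjusted p = 0.031). Of 5 endothelial markers, Pecam1, which leukocytes also express, made up nearly all of the sum and was the 1 tested. It was called higher between the c-kit+ groups, from 37.9 to 47.2 TPM in WT c-kit+ to 92.1 to 106 TPM in the labelled libraries (log2 fold change 1.21, SE 0.09, limma adjusted p = 0.00021), while Cdh5 was at or below 0.24 TPM.

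Genes with the most similar profiles were found over all 9 libraries among the 13962 genes that reached 1 TPM in 3 or more of them, by the root mean square difference of centred log2(TPM + 1). Closest to the mean profile of H2-Aa, H2-Ab1, H2-Eb1 and Cd74 were AC168977.1 (0.34), Gm16028 (0.37), Strc (0.38), Plbd1 (0.39) and Gm2427 (0.39). Plbd1 was 47.9, 42.7 and 133.5 TPM in WT c-kit-, 29.8, 17.2 and 35.75 TPM in WT c-kit+ and 1.46 to 1.64 TPM in the labelled libraries, so that it was also high in WT c-kit- library 3. For Ciita the closest were Ahr (0.17), which was 1.87 to 3.12, 1.24 to 2.44 and 0.04 to 0.13 TPM in the 3 groups, and Sema4a (0.20). For Cd86 they were Pgap1 (0.09) and Zfyve9 (0.10), which were 4.59 to 5.58 and 4.75 to 7.05 TPM in WT c-kit- and at most 0.26 and 0.42 TPM in the other groups.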

How the data were processed

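The values deposited by the authors are TPM, 1 per gene and library, for 55536 genes in 9 libraries. By the labels the libraries were made with the TruSeq RNA v2 kit, while the paper speaks of a microarray. The header names no unit. Each library sums to 987468 to 992231, and across 10442 genes with 1 transcript the smallest nonzero value fell with length (slope −0.827 on log10 scales), as TPM do. The aligner, counting and build are not given in the sources used here. Of the gene identifiers, 55450 are in GENCODE M21 (GRCm38), used for coordinates. Symbols of March1 and March8 were stored as dates and were matched by identifier, and H2-Ea, Cd58 and 1 B cell marker of the planned list are not reported here. TPM keep no depth, so precision is known only from 3 libraries a group.

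limma 3.58.1 (R 4.3.3, lmFit and eBayes with trend) was run on log2(TPM + 1) for each pair of groups, on genes reaching 1 TPM in 3 or more of the 6 libraries, with Benjamini-Hochberg adjustment over all genes tested. Thresholds were a log2 fold change of 1 and an adjusted p of 0.05. The script was tested on simulated data. A count test was planned for the case of counts and was not used. Motif and figure scripts used Python 3.11.15, pandas 2.3.3 and matplotlib 3.10.9.

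The members and gene lists were chosen with earlier results of these data known. The genes named are the 9 members, Irf7 and Kit, and from each pathway list those past both thresholds plus at most 6 others, the 5 genes most like a profile, and markers. Genes set beside the class II levels of AML-WT-c-kit- library 3 (Ly6g, Cebpe and single dendritic cell markers) were singled out after their values were seen, as were the motif letters. As alternatives, the filter was dropped or raised to 5 TPM, the pseudocount was set to 0.1, values were quantile normalized, the 9 libraries were fitted together, the replicate number was added as a block, p was left unadjusted, and each library was left out in turn with the genes tested kept.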

Additional observations from a re-analysis of the deposited data

How the results depend on the processing

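Across the alternatives, 335 values of single members were recomputed, of which 325 kept their direction and their call, which needs both thresholds, 10 lost the call and 0 changed sign. The filters, the joint fit, the block and the unadjusted p leave each fold change as it was, so no sign could change there. An unadjusted p cannot lose a call either. Among the 325, the adjusted p alone crossed its threshold in 5. For H2-Aa between the WT fractions it went from 0.067 to 0.0413 with the 9 libraries in 1 fit and to 0.0427 and 0.0243 without WT c-kit- library 2 or 3 (limma). For H2-Ab1 it went from 0.0928 to 0.0218 without WT c-kit- library 3, and for H2-DMa in the labelled libraries against WT c-kit- from 0.00555 to 0.108 with the 9 libraries in 1 fit (limma), each change staying under the fold threshold. The calls lost were those of H2-Ab1 between the c-kit+ groups and of Cd74 and H2-DMb1 between the WT fractions. The count of members called between the WT fractions, 5, came to 3 after quantile normalization, where Cd74 (log2 fold change −0.84) and H2-DMb1 were lost by size, and to 4 with no filter on low values (Cd74, limma adjusted p = 0.0529). With 1 library left out it was 4 to 5, and for the other comparisons 6 to 7 (between the c-kit+ groups) and 7 (labelled IRF7-/- c-kit+ and WT c-kit-). A filter of 5 TPM removed Ciita from both comparisons with the labelled libraries, left 6 members called in each, and gave 1015 genes called in place of 1548 between the c-kit+ groups. With the replicate number as a block the members called were 7, 5 and 7, as without it. The main fits did not pair libraries by number. Deviations of equal-numbered libraries correlated at −0.0712 to 0.237 between the WT fractions, 0.0187 to 0.0968 between the c-kit+ groups and 0.0451 to 0.0794 in the third comparison. In the same order, 2, 5 and 6 of 6 libraries were closest to their own number. Whether equal numbers share a source or a run was not tested, and the p-values of the main fits take no account of it. TPM without read numbers set a limit on Ciita and Cd86, whose levels near 0 carry no known counting error.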
